A study of Mus musculus with 321 samples.

Results

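Imprinted genes are transcribed from only 1 of the 2 parental copies, and the repressive histone mark H3K9me3 is known from the silent copy of their control regions. A set of 10 such mouse genes was examined here for repressive marks, open chromatin and Tcf-1 binding: H19, Igf2, Kcnq1ot1, Peg3, Snrpn, Meg3, Gnas, Peg10, Mest and Plagl1. These 10 genes were chosen by name from known imprinted clusters, and all 10 were found among the 34610 protein-coding and long non-coding RNA genes of RefSeq on GRCm38. Each was studied in a window of the gene body and 20 kb on either side. The windows measured from 42.6 kb at H19 to 507.7 kb at Snrpn, whose listed gene spans 467683 bases.

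The study asked what the T cell transcription factor Tcf-1 does to chromatin in thymocytes and, when introduced, in fibroblasts; 16 of its 321 samples and 1 pooled list of binding sites were used. Open chromatin had been measured by ATAC-seq in FACS-purified CD4+CD8+ (double-positive, DP) thymocytes labelled C56BL/6 (WT), with 2 libraries, or TCF-1-/- deltaVII (KO), with 2 libraries. It had also been measured in NIH3T3 cells, a mouse embryonic fibroblast line of NIH/Swiss origin at passages 8 to 12, carrying an empty retrovirus (Empty RV, 4 libraries) or one that expresses Tcf-1 (Tcf-1 RV, 4 libraries). Tags in the file names place replicates 1 and 2 of both these groups at day 2 and replicates 3 and 4 at day 4. The labels do not give the day, and the comparisons of 4 against 4 libraries pool both tags. H3K9me3 and H3K27me3 had been mapped by ChIP-seq in NIH3T3 cells whose labels name no virus, in 2 libraries each, and Tcf-1 binding came as 40562 summits pooled over Tcf-1 RV libraries. The summit list carries a day 2 tag, whereas the open NIH3T3 regions set against it pool both tags. The labels do not say that replicates came from separate cultures or animals, so the p-values below measure the spread between these libraries, which may be technical. NIH3T3 is 1 long-passaged line, and its imprints need not be those of a tissue.

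An imprinting control region is a stretch of DNA that carries methylation on 1 parental copy only. The methylated copy is held by KRAB zinc finger proteins such as ZFP57 and ZFP445 with TRIM28 and SETDB1, which deposit H3K9me3 there, while the other copy can be open and bound by factors such as CTCF. H3K27me3, the mark of Polycomb repressive complex 2, is known to silence further genes of some imprinted clusters. The files do not tell the parental copies apart, so a mark and an open region at the same place can lie on the same or on different copies.

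The 250 bases before 7 listed gene starts show the promoters on which the results turn. They were taken from RefSeq (GRCm38.p6), run 5′ to 3′ toward the gene, and have each CG dinucleotide, the site of DNA methylation, in capitals. Those of Plagl1 (chr10:13090582-13090831, plus strand), Mest (chr6:30737800-30738049, plus strand), Meg3 (chr12:109540746-109540995, plus strand) and Gnas (chr2:174284070-174284319, plus strand) each had their gene start inside an H3K9me3 island. So did those of Peg3 (chr7:6730420-6730669, minus strand) and Snrpn (chr7:60005200-60005449, minus strand). Kcnq1ot1 (chr7:143296548-143296797, minus strand) is shown as the contrast, since its start lay outside both marks.
Plagl1: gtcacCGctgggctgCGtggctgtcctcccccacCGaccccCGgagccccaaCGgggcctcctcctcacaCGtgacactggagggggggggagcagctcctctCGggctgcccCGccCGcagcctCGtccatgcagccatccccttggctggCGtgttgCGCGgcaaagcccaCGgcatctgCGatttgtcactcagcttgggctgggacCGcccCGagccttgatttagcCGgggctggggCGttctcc
Mest: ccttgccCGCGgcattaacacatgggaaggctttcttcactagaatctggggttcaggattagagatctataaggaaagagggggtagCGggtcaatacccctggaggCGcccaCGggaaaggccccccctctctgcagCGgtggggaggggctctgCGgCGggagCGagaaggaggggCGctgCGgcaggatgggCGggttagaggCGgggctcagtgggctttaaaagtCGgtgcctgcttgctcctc
Meg3: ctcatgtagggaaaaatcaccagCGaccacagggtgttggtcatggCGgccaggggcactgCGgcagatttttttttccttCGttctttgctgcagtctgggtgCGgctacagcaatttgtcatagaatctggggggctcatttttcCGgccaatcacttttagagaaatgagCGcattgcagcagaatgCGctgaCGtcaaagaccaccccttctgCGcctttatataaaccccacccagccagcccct
Gnas: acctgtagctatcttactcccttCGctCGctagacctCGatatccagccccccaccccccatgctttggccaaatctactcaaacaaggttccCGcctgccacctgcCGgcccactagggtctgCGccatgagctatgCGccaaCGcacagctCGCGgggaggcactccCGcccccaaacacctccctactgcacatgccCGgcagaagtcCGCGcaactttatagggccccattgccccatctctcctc
Peg3: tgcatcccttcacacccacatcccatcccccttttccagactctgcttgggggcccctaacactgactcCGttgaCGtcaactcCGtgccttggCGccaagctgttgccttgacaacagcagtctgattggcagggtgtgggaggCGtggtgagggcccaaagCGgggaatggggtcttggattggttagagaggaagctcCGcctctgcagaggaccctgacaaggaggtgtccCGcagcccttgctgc
Snrpn: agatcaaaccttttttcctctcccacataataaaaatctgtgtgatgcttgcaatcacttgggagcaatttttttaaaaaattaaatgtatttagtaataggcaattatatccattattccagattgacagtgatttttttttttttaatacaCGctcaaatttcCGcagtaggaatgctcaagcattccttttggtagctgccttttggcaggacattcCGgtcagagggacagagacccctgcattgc
Kcnq1ot1: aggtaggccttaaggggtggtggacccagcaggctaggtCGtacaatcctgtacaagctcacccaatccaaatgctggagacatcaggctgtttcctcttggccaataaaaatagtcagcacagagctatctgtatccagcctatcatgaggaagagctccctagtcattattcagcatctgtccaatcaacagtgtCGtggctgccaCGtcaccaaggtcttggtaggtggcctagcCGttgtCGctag

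The CG count differed widely among these promoters, at 19 in Plagl1, 14 in Mest and in the printed Gnas promoter, 10 in Meg3, 8 in Peg3, 5 in Kcnq1ot1 and 3 in the printed Snrpn promoter. The median was 9 over the 20 member starts and 6 over all 32851 listed starts. The ZFP57 core motif TGCCGC, searched on both strands with overlaps allowed, was found in the Plagl1 promoter, in the Meg3 promoter and at 2 places in the printed Mest promoter. In all, 4 of the 20 member promoters held it, against 8.68% of all promoters, and 2 of these 4 were Mest starts 3 bases apart. A CTCF core string was in 0 of the 20, against 1.09% of all promoters. The YY1 string AANATGGC was in 0 of the 20, against 3.91% of all promoters. The Tcf-1 family string CTTTGA was in 2, at Igf2 and Meg3, against 13.8% of all promoters. A match is a description of the letters and not a bound site.

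H3K9me3 islands, the broad enriched stretches that the authors called in each library, were present in both replicates in all 10 windows. Over all gene windows the share was 40.5%. Beside each island the deposited files give the ChIP reads, the control reads and a fold, which is the ChIP count over the control count scaled to the same depth. Reads are given per kb of island, since islands differ in length, and the ChIP counts behind them ran from 87 to 2645. Reads and folds are those of each replicate's own island, which can reach beyond the segment called in both replicates. Folds are given with 95% exact intervals that cover counting error only. The strongest islands of the member windows had a median fold of 4.43 (the lower of both replicates), against 2.41 over the gene windows with islands in both replicates.

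Peg10, a retrotransposon-derived gene expressed from the paternal copy, had the strongest island of the 10. It spanned chr6:4746001-4749600, over the start of the gene and the neighbouring Sgce, with the same bounds in both libraries. Replicate 1 had 102.5 ChIP and 34.2 control reads per kb (8.92-fold, 7.25 to 11.03) and replicate 2 had 136.7 ChIP and 34.2 control reads per kb (8.69-fold, 7.12 to 10.7). The island ranked 23rd of 24147 by fold in replicate 1 and 18th of 26988 in replicate 2. Of all gene windows, 17 (0.0491%) held an island as strong in both replicates, the Peg10 window among them.

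Gnas encodes the stimulatory G protein alpha subunit and shares its locus with several imprinted transcripts, including the antisense Gnasas1. Its stronger island lay inside the gene at chr2:174292801-174301200 with 892 ChIP and 322 control reads over 8.4 kb in replicate 1 (8.23-fold, 7.24 to 9.38). In replicate 2 it had 1100 ChIP and 331 control reads over 8.8 kb (7.22-fold, 6.38 to 8.19), and the intervals of the replicates overlapped. A weaker one covered the gene's first listed start, with 48.9 ChIP and 36.8 control reads per kb (3.95-fold, 3.37 to 4.63) in replicate 1. In replicate 2 it had 95.4 ChIP and 36.9 control reads per kb (5.62-fold, 4.72 to 6.73), and here the intervals did not overlap. The starts at 174327749, 174327768 and 174330006 lay outside both marks.

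Meg3 is a maternally expressed long non-coding RNA of the Dlk1-Dio3 cluster. Its H3K9me3 segment shared by both replicates, chr12:109522001-109546400, ran for 24.4 kb across the gene's lower end and both listed starts. Replicate 1 had 73.3 ChIP and 32.5 control reads per kb (6.70-fold, 6.18 to 7.27). Replicate 2 had 98.4 ChIP and 31.97 control reads per kb (6.69-fold, 6.17 to 7.26), and the intervals of the replicates overlapped. A second island at the window's far edge, chr12:109590001-109595200, lay over Rtl1 and the microRNA genes Mir431, Mir433, Mir127, Mir434 and Mir432. It had 39.8 ChIP and 34.6 control reads per kb (3.42-fold, 2.79 to 4.20) in replicate 1 and 54.6 ChIP and 34.6 control reads per kb (3.43-fold, 2.83 to 4.16) in replicate 2.

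Plagl1 (also called Zac1), a zinc finger transcription factor, had its start in an island of 5.14-fold (55.7 ChIP and 32.2 control reads per kb, 4.36 to 6.07) in replicate 1. The fold in replicate 2 was 5.04 (72.6 ChIP and 31.3 control reads per kb, 4.32 to 5.89). The segment of both, chr10:13088001-13095200, also touched the non-coding Hymai. Mest, a hydrolase-like gene expressed from the paternal copy, had all 3 of its listed starts in 1 island, with 20 kb called in both replicates (chr6:30727201-30747200). It had 57 ChIP and 40.95 control reads per kb (4.14-fold, 3.78 to 4.53) in replicate 1 and 67.9 ChIP and 40.3 control reads per kb (3.66-fold, 3.37 to 3.98) in replicate 2.

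Peg3, a paternally expressed zinc finger gene that shares a start region with Usp29, held a weaker island, called in both replicates at chr7:6724801-6734400. Its fold was 3.27 (43.8 ChIP and 39.8 control reads per kb, 2.84 to 3.76) in replicate 1. In replicate 2 this segment was part of an island of 14 kb with a fold of 2.62 (42.6 ChIP and 35.4 control reads per kb, 2.32 to 2.96). Snrpn, which encodes a spliceosomal protein within the Prader-Willi and Angelman region, differed in form. It had 11 separate segments of 8.4 to 26.8 kb spread over its window, 25.2% of it in all. The segment over the printed Snrpn start, chr7:59995601-60008400, was the strongest, with 32.97 ChIP and 26.3 control reads per kb (3.72-fold, 3.22 to 4.31) in replicate 1. In replicate 2 it was part of a longer island with 29.9 ChIP and 27.9 control reads per kb (2.33-fold, 2.11 to 2.56). The intervals of the replicates did not overlap. The other Snrpn islands had folds of 1.44 to 2.23.

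Kcnq1ot1, the paternally expressed antisense RNA of the Kcnq1 cluster, was the exception at the start. Its H3K9me3 segment of both replicates, 41.6 kb at chr7:143217201-143258800, lay in the gene body and not at the start at 143296547. Replicate 1 had 42.5 ChIP and 22.6 control reads per kb (5.58-fold, 5.15 to 6.04). In replicate 2 the segment was part of an island of 54.4 kb with 48.6 ChIP and 24.1 control reads per kb (4.38-fold, 4.10 to 4.68). The intervals of the replicates did not overlap. H19, a maternally expressed non-coding RNA, and Igf2, a paternally expressed growth factor, share a control region between them, next to H19. An H3K9me3 island lay on that side of H19, outside the gene, with 2 kb called in both replicates (chr7:142580001-142582000). Replicate 1 had 50.4 ChIP and 25.4 control reads per kb (5.90-fold, 4.30 to 8.16) and replicate 2 had 55.6 ChIP and 26.9 control reads per kb (4.48-fold, 3.50 to 5.77). At Igf2 a segment of 2.8 kb called in both replicates lay over 1 of the 4 listed starts. In replicate 1 it was part of an island of 6 kb that also reached the start at 142661271. That island had 20.8 ChIP and 19.8 control reads per kb (3.12-fold, 2.41 to 4.05). The island of 2.8 kb in replicate 2 had 45 ChIP and 20.4 control reads per kb (4.80-fold, 3.49 to 6.69). A second, at chr7:142667601-142672000 just beyond the gene, had 35.5 ChIP and 25.2 control reads per kb (4.18-fold, 3.25 to 5.38) in replicate 1 and 52.7 ChIP and 25.2 control reads per kb in replicate 2 (4.54-fold, 3.61 to 5.75).

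**Figure D1:**
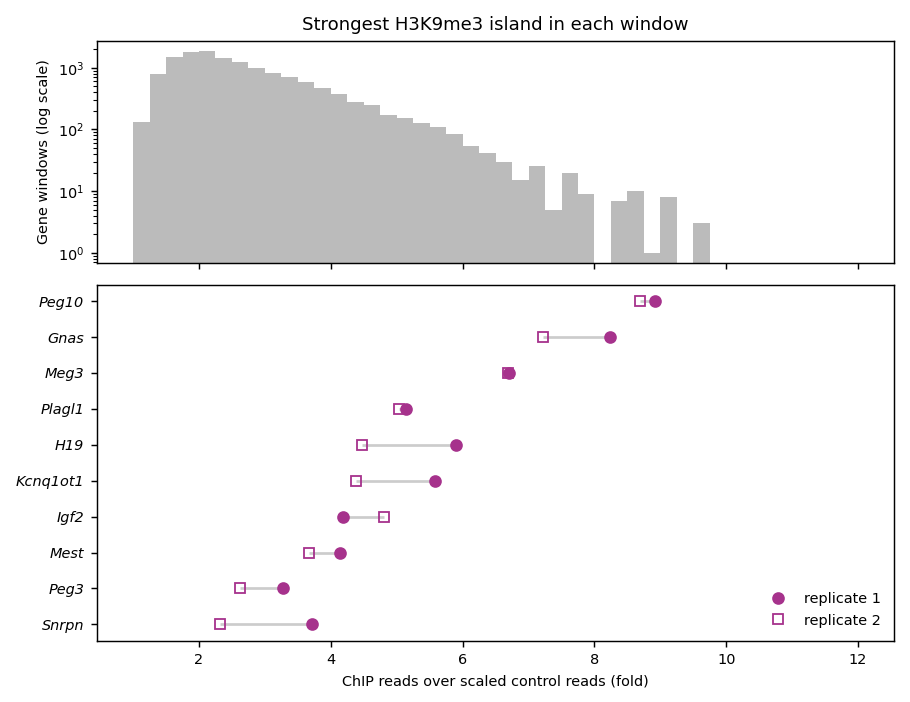
Strongest H3K9me3 island of each imprinted window. Lower panel: fold of ChIP over scaled control reads in replicate 1 (circles) and replicate 2 (squares). Upper panel: histogram on a log count axis of the lower of both folds over the gene windows with islands in both replicates. Peg10 lies at 8.92 and 8.69, Snrpn at 3.72 and 2.33.

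Starts in the promoter table belonged to 8 of the 10 genes, 20 in all, and 11 of the 20 lay in an H3K9me3 island of both replicates. These belonged to 7 genes of the 8, the exception being Kcnq1ot1. Of all genes with a listed start, 7.52% had one in such an island. This share does not depend on the window's length, but it rises with the number of starts listed per gene. The 8 members had 20 starts, whereas all 27025 genes had 32851. Counted by start, 11 of the 20 member starts lay in such an island, against 2308 of the 32851. Openness was read over each promoter, the 250 bases before the start and the 50 bases from it on. Over the genome, 3.16% of the promoters of the 2308 marked starts met a peak in each of the 8 NIH3T3 libraries. The share was 23.5% for the starts outside. Among the 11 marked member starts only the promoter of Plagl1 met a peak in all 8.

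H3K27me3 islands of both replicates were present in 8 windows, all but Peg3 and Snrpn, against 53.6% of all gene windows. All 8 thus held both marks, against 22.2% of gene windows. Stretches with both marks measured 5.4 kb at Mest, 1 kb at Igf2 and 0.2 kb at Plagl1, and 0 kb in the other windows. H3K27me3 islands of both replicates took up 49.8% of the H19 window, 34.7% at Mest, 32.02% at Plagl1 and 24.4% at Peg10, mostly outside the gene. The share was 15.3% at Kcnq1ot1, 10.3% at Igf2, 7.42% at Gnas and 3.11% at Meg3, against a mean of 14.03% over gene windows. The listed start of 1 gene of the 8, Igf2, lay in H3K27me3, against 14.1% of all genes. The H3K27me3 folds of these windows were ordinary, with a median of 2.31 for the strongest island over the 8 windows against 2.33 over gene windows with such islands. At Mest an H3K27me3 segment of 21.6 kb and one of 5.2 kb lay below the gene, and the second of these lay within the H3K9me3 island. Gene bodies alone met an H3K27me3 island of both replicates in 3 of the 10, near the 26.8% of all genes.

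**Figure D2:**
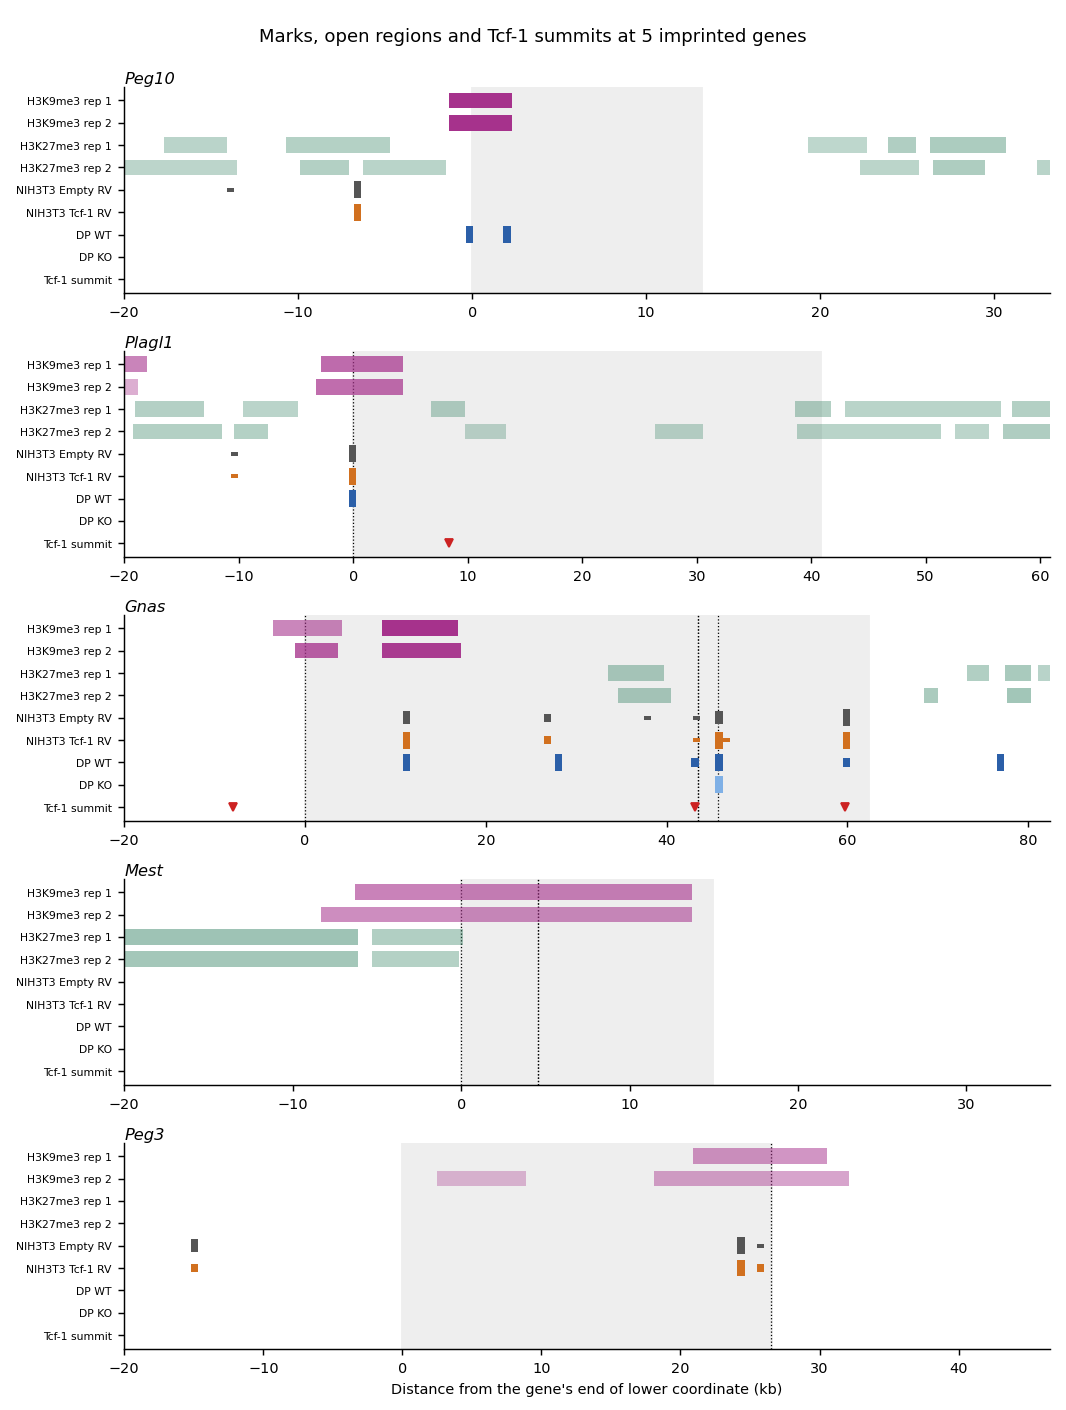
Windows of Peg10, Plagl1, Gnas, Mest and Peg3, with the x axis in kb from the gene's end of lower coordinate. Purple and green bars are H3K9me3 and H3K27me3 islands of each replicate, darker for a higher fold; ATAC marks have a fixed width and a height set by the share of the group's libraries that hold the region; triangles are Tcf-1 summits, grey the gene body and dotted lines the listed starts. The Plagl1 start has H3K9me3 and open chromatin, while Mest has H3K9me3 over all 3 starts and no open region.

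Open chromatin and H3K9me3 met at 2 of the 10 genes, Peg3 and Plagl1, where a region called in all 8 NIH3T3 libraries had its midpoint in an island of both replicates. Over all gene windows this share was 2.83%. The Plagl1 region, chr10:13090459-13091040, covered the gene start and the TGCCGC match. The Peg3 region, chr7:6727430-6729060, was 1631 bases wide and lay 1359 bases inside the gene from its listed start. A smaller one nearer the Peg3 start, chr7:6729534-6729784, was called in 3 of the 8 libraries (Empty RV replicate 4 and Tcf-1 RV replicates 3 and 4). At Gnas a region in the strong island, chr2:174295352-174295717, was called in 7 of the 8, all except Empty RV replicate 1, the shortest NIH3T3 list. In the Snrpn island over the start, only Tcf-1 RV replicate 4, the longest list, had a region.

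Outside H3K9me3, the Kcnq1ot1 start was open in every library of both cell types: the region chr7:143296291-143296948 was called in all 8 NIH3T3 libraries, and chr7:143296447-143296938 in all 4 DP libraries. The Gnas start at 174330006 lay in a region called in 7 of 8 NIH3T3 libraries (chr2:174329569-174330664) and in all 4 DP libraries (chr2:174329597-174330619). The Peg10 window had an NIH3T3 region of all 8 libraries below the gene, chr6:4740422-4740986, and none in its H3K9me3 island. H19, Meg3 and Mest had no peak in any of the 12 ATAC libraries, against 17.8% of gene windows. In all, the 10 windows held 21 NIH3T3 regions, of which 5 were in all 8 libraries (24% of all NIH3T3 regions were), 4 in 7 and 6 in 1 library.

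**Figure D3:**
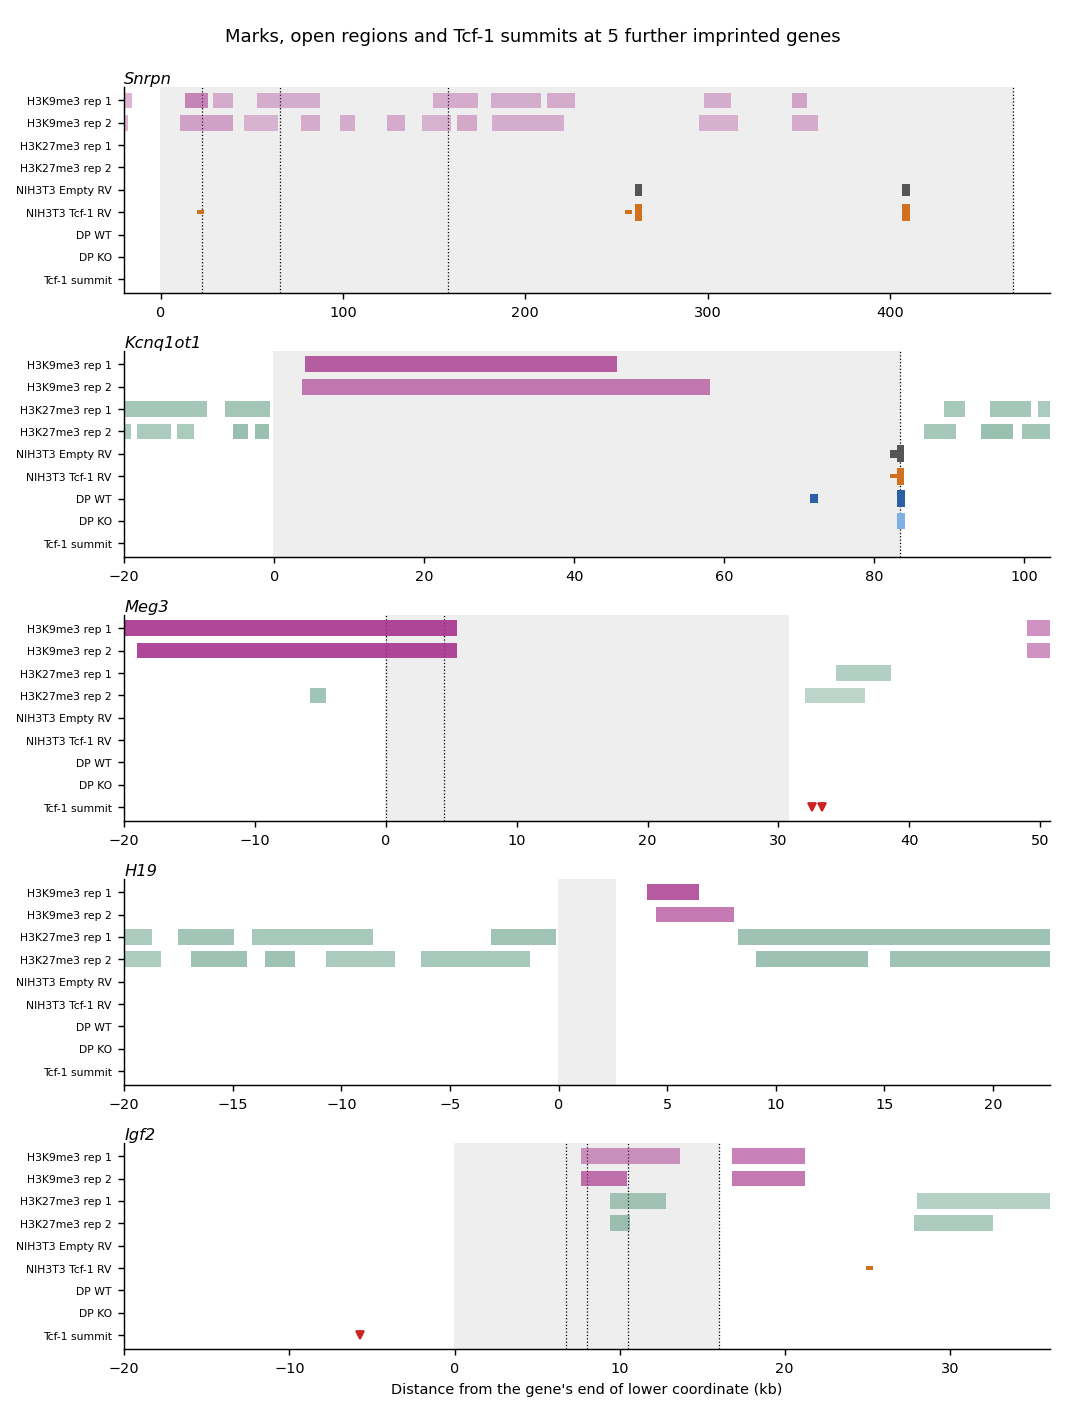
Windows of Snrpn, Kcnq1ot1, Meg3, H19 and Igf2, drawn with the same tracks and the x axis in kb from the gene's end of lower coordinate. Bar shade follows the island fold, ATAC mark height the share of libraries and dotted lines the listed starts. The Kcnq1ot1 start is open in both cell types beyond the end of its 41.6 kb H3K9me3 segment, and Snrpn has 11 H3K9me3 segments of both replicates and no H3K27me3.

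In NIH3T3 cells, none of the 21 regions was gained with Tcf-1 (called with the Tcf-1 virus in 4 of 4 libraries and with the empty one in 0) and none was lost (the reverse). Over all 77882 NIH3T3 regions, 1.08% were gained and 0.11% lost. Within the day 2 tag or the day 4 tag alone (2 libraries against 2), none in the windows was gained or lost either. Over all regions, 9427 were then gained and 388 lost within day 2, and 1499 gained and 2457 lost within day 4. Peaks per window are given in the order of replicates 1 to 4. Snrpn had 0, 2, 2 and 2 peaks in Empty RV and 3, 2, 3 and 5 in Tcf-1 RV, a difference of 1.75 (two-sided exact permutation p 0.114, n = 4 and 4). The groups touched at 2 peaks. Gnas had 1, 3, 4 and 6 against 4, 4, 4 and 6 (difference 1.0, exact permutation p 0.514). Peg3 had 4, 3, 3 and 3 against 2, 2, 4 and 3 (difference -0.5, exact permutation p 0.629). The Gnas and Peg3 groups overlapped.

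Kcnq1ot1 had 1, 1, 2 and 2 peaks in Empty RV and 1, 1, 1 and 2 in Tcf-1 RV, Peg10 had 1, 1, 1 and 2 against 1 in each, and Plagl1 had 1, 1, 1 and 2 in both groups. Igf2 had a single peak, in Tcf-1 RV replicate 4. Each of these 4 had an exact permutation p of 1. None of the 7 windows with a peak passed an unadjusted p of 0.05, against 0.945% of the 27506 gene windows tested (260). After Benjamini-Hochberg adjustment over those windows no gene passed (0%), and all 7 members had an adjusted p of 1. The smallest p of 4 against 4 is 0.0286, so a window could pass the adjustment only if most windows reached that value. The adjusted result is therefore set by the number of libraries and says nothing about single windows. Without Tcf-1 RV replicate 2 the Snrpn difference was 2.17, with an exact permutation p of 0.0286, and with the same number of widest peaks in every library it was 0 (exact permutation p 1). The windows' peaks summed to 8, 11, 13 and 17 in Empty RV and 12, 11, 14 and 20 in Tcf-1 RV, from lists of 22778 to 62639 peaks. The longest list had the highest sum and the shortest list the lowest. With the same number of widest peaks in every library, the differences were 0 at Snrpn, Igf2, Kcnq1ot1, Peg10 and Plagl1 and -0.5 at Gnas and Peg3. Per 10000 peaks of the list, Snrpn differed by 0.34 peaks (exact permutation p 0.0571) and Gnas by 0.154 (exact permutation p 0.371).

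Tcf-1 summits were found in 4 windows of the 10, against 56% of gene windows, and numbered 7. Gnas had 3, Meg3 had 2, and Igf2 and Plagl1 had 1 each. None lay in an island of both replicates of either mark. Both Meg3 summits lay in an H3K27me3 island of replicate 2 alone and the Plagl1 summit in one of replicate 1 alone. Of the 7, 2 lay in an open NIH3T3 region, both at Gnas. The one at chr2:174344106 was in a region of all 8 libraries, chr2:174343944-174344566, and the one at chr2:174327475 in a region of 2 libraries. The authors' scores of the 7 ranged from 1.84 at Meg3 to 50.9 at Igf2, against a median of 17.01 over all 40562 summits. Each Tcf-1 summit of Igf2 and Meg3 lay outside the gene.

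In DP thymocytes, 8 regions of these windows were called in both WT libraries, in Gnas (4), Peg10 (2), Kcnq1ot1 (1) and Plagl1 (1). Of these, 6 were called in neither KO library, against 45.7% of all such regions, and 2 were kept in all 4 libraries, against 42.1%. The 6 lost regions were the Plagl1 start (chr10:13090621-13090913), 2 regions at Peg10 (chr6:4746935-4747352 and chr6:4749095-4749520) and 3 at Gnas (chr2:174295368-174295735, chr2:174312279-174312517 and chr2:174361150-174361428). The kept ones were the starts of Kcnq1ot1 and of Gnas described above. No region was gained in KO, against 0.142% of all DP regions. With 2 libraries against 2 the smallest exact p is 0.333, so no single region can pass a test.

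Several of these regions lay where the fibroblasts carried H3K9me3. Of the 8, 4 had their midpoint in an H3K9me3 island of the fibroblasts, a different cell type, against 4.32% of all regions of both WT libraries, and these 4 (2 at Peg10, 1 at Gnas and 1 at Plagl1) were all lost. Of the 4 outside, 2 were lost. Over all DP regions of both WT libraries the lost shares were 57.9% inside such islands and 45.2% outside. The Peg10 regions were called in no NIH3T3 library, whereas the Plagl1 region was called in all 8 NIH3T3 libraries and the Gnas one in 7. By peaks per window, WT replicates 1 and 2 had 4 and 6 at Gnas, against 1 and 1 in KO. Peg10 had 2 and 2 against 0 and 0, Plagl1 1 and 1 against 0 and 0, and Kcnq1ot1 1 and 2 against 1 and 1.

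The KO lists were shorter, at 11171 and 12209 peaks against 23249 and 30985 in WT, and a region absent from a list can be a weak region and not a closed one. With the 11171 widest peaks of each library 0 of the regions were lost. Over all DP regions the number lost fell likewise, from 10032 to 1361. The 6 losses thus rest on the narrower peaks of the longer WT lists. H3K9me3 in thymocytes was not analysed here. Of 8 DP thymocyte marker genes (Cd4, Cd8a and Rag1 among them), 8 had a peak in every WT library and 7 in every KO library, but 6 also had one in every Empty RV and in every Tcf-1 RV library. Of 8 fibroblast markers, 2 had one in every WT and 1 in every KO library, against 7 in Empty RV and 8 in Tcf-1 RV. The 3 B cell markers summed to 7 peaks in each WT and 4 to 5 in each KO library, the 3 myeloid markers to 1 to 2 and 1, and the 3 thymic epithelium markers to 1 to 4 and 1. Lyz2, Csf1r and Krt5 had no peak in any DP library. The part of other cells in the lost regions was not tested.

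**Figure D4:**
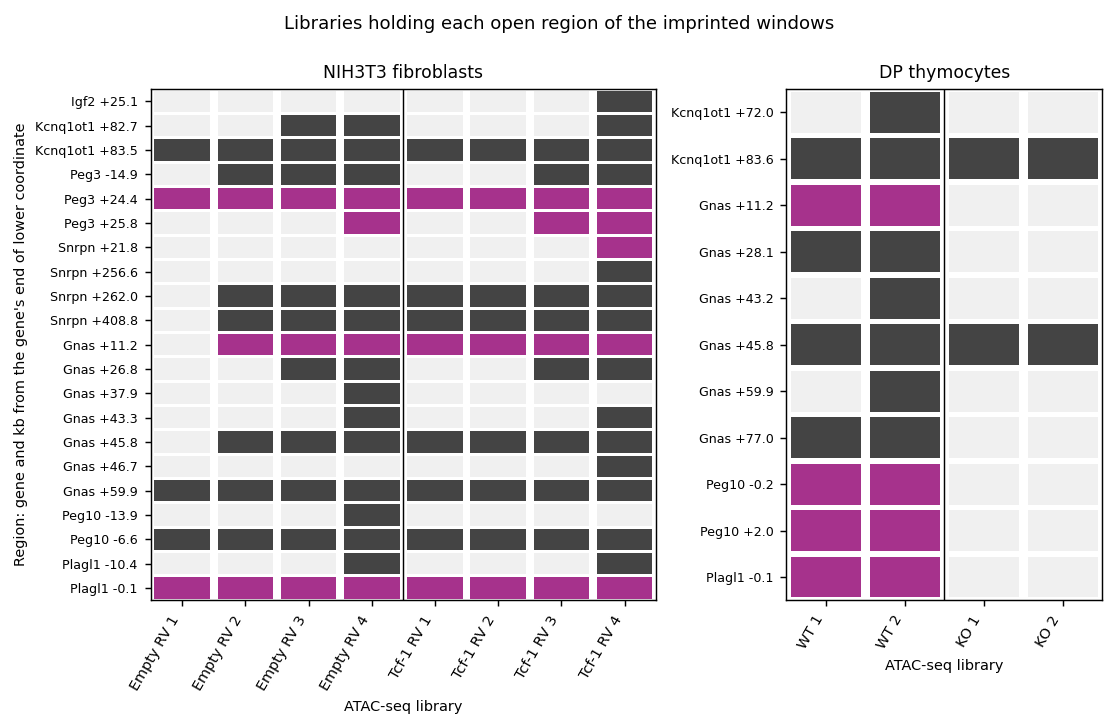
Libraries that hold each open region of the imprinted windows, in NIH3T3 (left) and DP thymocytes (right), with rows named by gene and kb from the gene's end of lower coordinate. Filled cells are called regions, purple where the midpoint lies in an NIH3T3 H3K9me3 island of both replicates and dark grey elsewhere. The 4 purple DP regions are filled in both WT libraries and in neither KO library.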

How the data were processed

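ATAC-seq peaks, histone islands and Tcf-1 summits were used as deposited. Per the submitters' processing notes, the tools included Trim Galore, FastQC, Bowtie2 2.2.9, Picard, MACS2 and STAR 2.5, and the build was mm10 (GRCm38). The ATAC lists hold positions only, so presence per library was compared, and the reads behind a peak are not known. Per the file headers and labels, islands were called for each library. The authors deposited with each island the read counts of ChIP and control, a fold ratio and an adjusted p-value, and with each summit a score of unstated scale. The control read counts were identical in all 1748 H3K9me3 and all 523 H3K27me3 islands with the same bounds in both replicates, so the replicates share 1 control. Reads in islands were 9319200 and 13378883 for H3K9me3 and 10617002 and 10050522 for H3K27me3.

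With Python 3.11.15, pandas 2.3.3 and scipy 1.17.1, islands were intersected between replicates, ATAC peaks sharing at least 1 base were merged, and 293 peaks on unplaced sequences were left out. Peak numbers per window were compared by two-sided exact permutation tests, with Benjamini-Hochberg adjustment over all gene windows with a peak. The interval code and test were checked on simulated data. Peak numbers were correlated between the arms as deviations from the mean of each library's own arm. In this measure same-numbered NIH3T3 libraries of both arms correlated at 0.187, 0.189, 0.125 and 0.260. Empty RV replicate 2 and Tcf-1 RV replicate 1, of different number, correlated at 0.194. All pairs of replicate 1 or 2 with replicate 3 or 4 of the other arm were negative (-0.0895 to -0.243). Deviations from a mean cancel within an arm, so some negative values arise in any case. The values group replicates 1 and 2 apart from 3 and 4 and do not settle pairs by number. Flanks, island and peak thresholds, list length and left-out replicates were varied. All 10 members were described, and of the other imprinted genes those with an open region in H3K9me3 or a gained region were named. Nnat, Begain and Ddc were named beyond this rule. The members and lists were chosen with earlier results of these data known.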

Additional observations from a re-analysis of the deposited data

Results flagged for a closer look

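Over the 7 windows with an NIH3T3 peak there were 14 groups of 4 libraries, and 8 had a highest or lowest library set apart from the other libraries by more than Dixon's 95% limit, where chance gives about 1 in 20. Counts this small differ by whole peaks, so a group with 3 equal values is set apart by 1 peak. Tcf-1 RV replicate 4, the longest list, stood apart with 1 peak at Igf2 (0 in the other libraries), 2 at Kcnq1ot1, 2 at Plagl1 (1 in the other libraries of each) and 6 at Gnas (4 in the others). Empty RV replicate 4 stood apart with 2 peaks at Peg10 and 2 at Plagl1, against 1 in the others. Empty RV replicate 1, the shortest list, stood apart with 0 peaks at Snrpn, against 2, and with 4 at Peg3, against 3. In sum, 6 of the 8 concerned replicate 4 and 2 replicate 1. The cause was not tested.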

How the results depend on the processing

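Among the alternative counts of 16 results, 7 moved by more than 1.5 times. Among those for single windows 4 reversed and 1 passed the threshold. With the same number of widest peaks the differences at Snrpn, Igf2, Kcnq1ot1 and Peg10 became 0, as did that of Gnas within the day 4 tag. Those of Igf2, Kcnq1ot1 and Peg10 were also 0 with gene bodies alone and within the day 2 tag. The 5 kb flank gave 0 at Igf2 and Peg10. Igf2 was 0 without Tcf-1 RV replicate 4, and Peg10 without Empty RV replicate 4. The alternatives for listed starts and for the other imprinted genes were chosen after seeing the data. With gene bodies alone, 3 members (not 8) had H3K27me3 and 2 (not 4) a Tcf-1 summit, as fewer bases were searched; the shares of all genes were then 26.8% and 27.5%. Listed starts in H3K27me3 numbered 0 members with an adjusted p of 1e-10 or less and 1 to 2 when a replicate was left out (1 reported). The 6 lost DP regions became 0 with the same number of widest peaks and 6 to 9 when a replicate was left out. Over all DP regions the 10032 lost became 1361 and 10907 to 18418 under these settings. In the windows 1 region was kept (not 2) when a peak had to cover 50% of it, while all kept regions went from 9239 to 6487. Without Tcf-1 RV replicate 2, 1 member (Snrpn) passed an unadjusted 0.05 in peak number, so the leave-one-out range was 0 to 1. Directions reversed for Kcnq1ot1 (0.01875 kb, reported as -0.25 peaks) and Peg3 (0.109 kb) in kilobases covered by peaks, for Peg3 within the day 4 tag of the file names (0.5 peaks) and for Gnas with the widest peaks (-0.5). None of these reversals passed a test, and the causes were not tested. With same-numbered NIH3T3 libraries as pairs (replicate block), 0 regions were gained or lost and 0 members passed, the smallest p of 4 pairs being 0.125. In DP cells the same-number correlation was -0.0505 and the other-number one 0.0505. With 2 libraries per arm, deviations from the arm's mean give only this 1 value with either sign. It therefore cannot settle whether the numbers pair the libraries. Requiring the loss within 1 same-numbered pair at least gave 9 lost regions, and 21572 over all DP regions. Without heights in the ATAC lists, a region near the calling limit and an absent one cannot be told apart.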

Other observations

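Of 69 further imprinted genes, 67 were found in the gene table, and 45 of the 67 windows (67.2%) held an H3K9me3 island of both replicates, against 40.5% of gene windows. Leaving out the genes whose windows meet a member window, it was 38 of 59. Of the 54 with a listed start, 16 had one in such an island, against 7.52% of all genes with a listed start. Among the 16 were Nnat, a brain proteolipid gene (7.86-fold and 7.56-fold), and Begain (7.52-fold and 6.73-fold). These folds are those of the strongest island in the window of each. An open region of all 8 NIH3T3 libraries lay in H3K9me3 in 5 windows, against 2.83% of gene windows, those of Slc38a4, Igf2r, its antisense RNA Airn, Herc3 and Usp29, the last of which shares the Peg3 region. A region was gained with Tcf-1 in the windows of Grb10, Cobl, Herc3, Nap1l5 and Cd81, and 1 was lost at Ddc. Over all NIH3T3 regions 1.08% were gained and 0.11% lost. The share of gene windows with such a region was not computed, so these counts are descriptions alone. Windows of neighbouring genes overlap, so these genes are not independent.

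Of 9 genes known to maintain imprints (Zfp57, Zfp445, Trim28, Setdb1, Dnmt1, Uhrf1, Dppa3, Ctcf and Atrx), 4 had H3K9me3 in the window (44.4%, near the 40.5% of all gene windows): Zfp445 (5.14-fold and 4.36-fold), Setdb1 (3.16-fold and 3.61-fold), Atrx (3.06-fold and 2.78-fold) and Dppa3 (1.63-fold and 1.15-fold). No listed start of these genes lay in an island of either mark, against 7.52% (H3K9me3) and 14.1% (H3K27me3) of all genes. Only the Atrx window held a gained NIH3T3 region (1), a count for which no share of gene windows was computed.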
